A study of Saccharomyces cerevisiae with 31 samples.

Results

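The adenine deaminase gene AAH1 and 9 other genes of purine salvage, purine interconversion and GMP synthesis were followed through 1 metabolic cycle of Saccharomyces cerevisiae. The genes were taken by symbol from the array annotation: AAH1, APT1, HPT1, ADO1, AMD1, FCY2, IMD2, IMD3, IMD4 and GUA1. They are 10 of 5449 genes of this yeast with a probe set on the array. Each had 1 probe set, and all 10 passed the filter on low intensity. AAH1 was chosen for its swing, the largest of all probe sets tested, so its range and its timing are given as a description without a test. The other genes were chosen by pathway, with earlier results of these data known.

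The cells were CEN.PK122 in a continuous, aerated culture that oscillated spontaneously between respiratory and reductive states with a nominal period of 2 h. Total RNA was hybridized to 31 Affymetrix Yeast 2.0 arrays, 1 every 4 min between 12.53 and 14.53 h, and each array has a labelled phase angle from 5.93 to 362.01 degrees. The arrays form 1 group with no control and no repeated time point. Which angles belong to the respiratory state is not labelled, and nothing states that more than 1 culture or cycle was sampled, so p-values measure the spread of these arrays around a fitted curve.

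Yeast makes purine nucleotides from small precursors or salvages ready-made bases and nucleosides. In salvage, the permease Fcy2 brings in adenine, guanine, hypoxanthine and cytosine, Apt1 turns adenine into AMP, and Aah1 deaminates adenine to hypoxanthine, which Hpt1 turns into IMP. IMP is the branch point: IMP dehydrogenase, encoded by the IMD genes, and the GMP synthase Gua1 carry it to GMP, while adenosine kinase (Ado1) and AMP deaminase (Amd1) act on the adenine side. A salvaged adenine base can thus reach IMP and the guanine branch through Aah1 and Hpt1, or through Apt1 and Amd1.

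Values are probe set intensities after quantile normalization, unless called deposited. The median deposited intensity of an array lay between 1056 and 2142, and precision is limited by how many arrays there are. The 5 dimmest arrays lay at 41.54, 124.62, 136.48, 148.35 and 172.09 degrees, and 4 of them fall where most of these genes were low. Spike-in controls split the arrays into sets of 16 and 15, called batches 1 and 2 here, which follow the array numbers in the labels and sampled different angles. What made the split is not labelled. Part of each lower level could be fewer cells in a given state or less RNA per cell, which cannot be told apart in a whole culture.

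AAH1 was high for a short part of the cycle and low for most of the rest. Its normalized intensity was lowest at 362 (136.48 degrees), had a median of 1151 and was highest at 11958 (29.67 degrees), a 33.0-fold span over 31 arrays. On the deposited scale it ran from 264 over a median of 1190 to 13516. Only 11 arrays lay above the midpoint of its log2 values. From 17.8 to 41.54 degrees it stood at 11336, 11958 and 10343, and from 100.88 to 160.22 degrees all 6 arrays lay between 362 and 446. The spread of single arrays around their neighbours was 0.13 on the log2 scale for AAH1 and 0.08 for the median probe set.

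**Figure D1:**
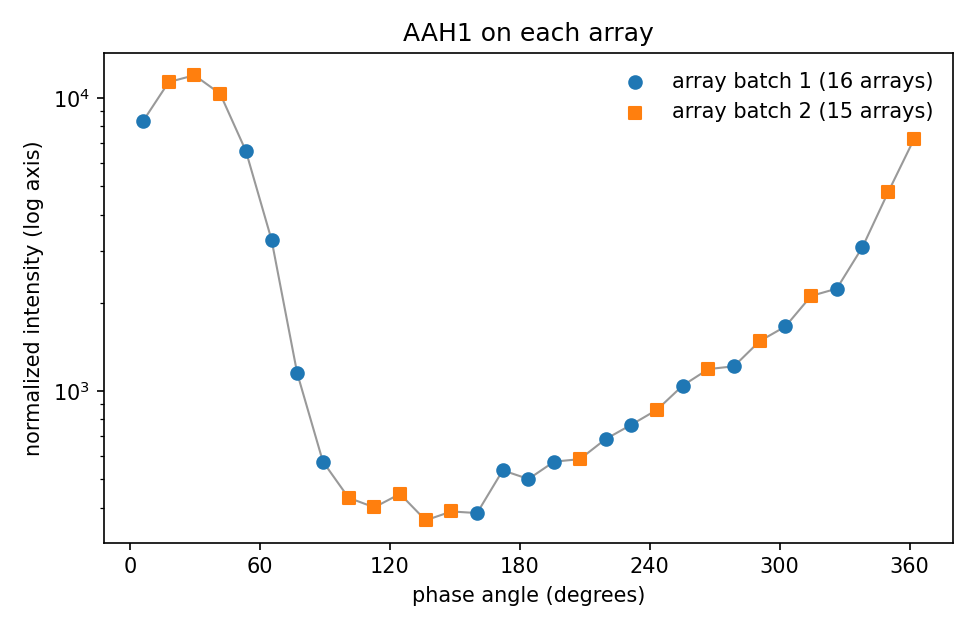
Normalized intensity of AAH1 (log axis) against the labelled phase angle in degrees, 1 point per array, with circles for batch 1 (16 arrays) and squares for batch 2 (15 arrays). The level peaks at 11958, drops within a few arrays and climbs slowly from a floor near 362.

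The fall of AAH1 was much steeper than its return. It stood at 6603 at 53.41 degrees, 3285 at 65.28, 1151 at 77.14 and 575 at 89.01 degrees. That is an 11.5-fold drop in 12 min across arrays that all belong to batch 1. The steepest single step, from 65.28 to 77.14 degrees, was 2.85-fold. The return took most of the cycle, through 685 at 219.56, 1188 at 267.03 and 2111 at 314.51 degrees to 7231 on the last array. The steepest rising step, from 338.24 to 350.11 degrees, was 1.54-fold. From highest to lowest array the way down took 36 min. The way up, 84 min, was not sampled without a break. It joins the end of the series to its first arrays as 1 closed cycle, without the last array. These times were not particular to AAH1: HPT1, FCY2, IMD4 and GUA1 also took 36 min down and 84 min up. The times were 32 and 88 min for APT1 and ADO1, and 40 and 80 min for IMD3. For AMD1 they were 60 and 60 min and for IMD2 64 and 56 min. The first array (5.93 degrees) and the last (362.01 degrees) differed by -0.21 on the log2 scale (last minus first).

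A cosine fitted to all arrays gave AAH1 a peak-to-trough range of 4.04 ± 0.39 on the log2 scale (SE, n = 31 arrays). The next largest range in the data was that of the RNA helicase gene DBP2, at 3.79, which lies within the SE of the AAH1 range. AAH1 ranked first with all arrays, with any single array left out, and within batch 2, where its range was 4.98. Within batch 1 its range was 3.20 and its rank was 14, so its first place did not hold there. The arrays of batch 1 missed its 3 highest points, at 17.8 to 41.54 degrees. They also missed the low points from 100.88 to 148.35 degrees. The cause of the lower rank of AAH1 was not tested. Without the 5 dimmest arrays its range was 3.89.

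All 9 other genes varied with phase (limma's moderated F-test, adjusted p from 6.95e-11 for FCY2 to 1.93e-05 for AMD1). Of all 5422 probe sets tested, 89.1% did so, so the count says nothing particular about them. Their fitted ranges were larger than usual: 7 of 9 reached 2-fold, against 23.1% of all probe sets tested. Their median range was 1.50, against 0.54 over all probe sets tested (log2 scale). In 8 of 9 the fitted peak lay from 300 to 60 degrees, against 35.5% of all probe sets tested, and in none of the 9 from 120 to 240 degrees, against 43.9% of all probe sets tested. These shares describe a list chosen with results known. They were taken after quantile normalization. IMD2 counts among the 7, but its log2 range was 0.90 on the deposited scale and 0.95 with median centring, under 2-fold. It is the gene outside 300 to 60 degrees, but on the deposited scale its fitted peak was at 55.4 degrees. The SEs treat arrays as independent, although residuals of neighbouring arrays correlated by 0.645, and all 9 also passed with serially correlated arrays (adjusted p up to 0.0366, for AMD1), where 60.3% of all probe sets did.

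**Figure D2:**
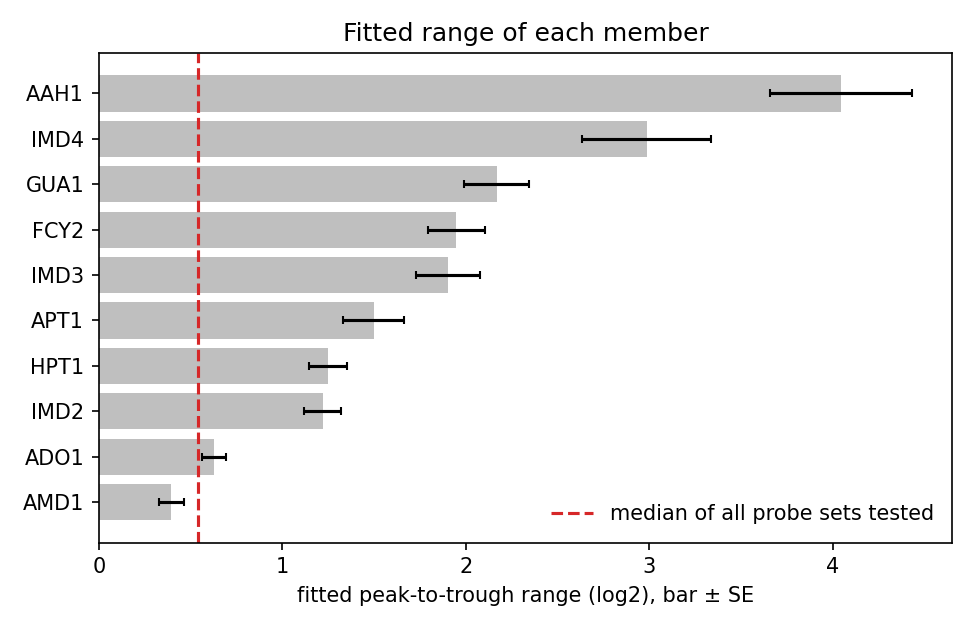
Fitted peak-to-trough range of each of the 10 genes on the log2 scale, with bars starting at 0, error bars of 1 SE (n = 31 arrays) and a dashed line at the median of all probe sets tested (0.54). AAH1 is followed by IMD4, and only AMD1 lies under the line.

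Among the uptake and base salvage genes other than AAH1, FCY2 moved most. FCY2, the purine and cytosine permease gene, was lowest at 2031 (136.48 degrees), had a median of 5344 and was highest at 11128 (29.67 degrees). Its fitted range was 1.95 ± 0.15 (SE). APT1, for adenine phosphoribosyltransferase, which competes with Aah1 for adenine, ran from 1534 over a median of 2399 to 6324 at 41.54 degrees, with a fitted range of 1.50 ± 0.17 (SE). HPT1, for hypoxanthine-guanine phosphoribosyltransferase, which uses the product of Aah1, ran from 2962 over a median of 4935 to 8902 at 17.8 degrees, with a fitted range of 1.25 ± 0.10 (SE). High and low arrays of these genes lay in the same parts of the cycle as those of AAH1, but the swings were smaller: 5.48-fold, 4.12-fold and 3.01-fold between highest and lowest array.

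The adenylate genes had the smallest fitted ranges of the genes followed, although that of ADO1 was above the median of all probe sets tested (0.54). ADO1, for adenosine kinase, ran from 6228 at 136.48 degrees over a median of 9055 to 11166 at 41.54 degrees, a 1.79-fold span, with a fitted range of 0.63 ± 0.07 (SE). AMD1, for AMP deaminase, ran from 1579 at 207.69 degrees over a median of 1717 to 2698 at 29.67 degrees, with a fitted range of 0.40 ± 0.07 (SE), below the median of all probe sets. The high part of AMD1 was narrow. It stood at 2592 and 2698 on the arrays at 17.8 and 29.67 degrees, both of batch 2, and at 2111 and 2121 on the arrays before and after. On the deposited scale the fitted peak of AMD1 moved from 49.9 to 15.6 degrees, and with a linear trend in time to 2.5 degrees.

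On the guanine branch, GUA1, for GMP synthase, was lowest at 1942 (136.48 degrees), had a median of 5315 and was highest at 12045 (29.67 degrees), with a fitted range of 2.17 ± 0.18 (SE). IMD3 ran from 1952 at 172.09 degrees over a median of 4732 to 10389 at 53.41 degrees, with a fitted range of 1.90 ± 0.17 (SE). IMD4 came closest to AAH1: it ran from 256 at 136.48 degrees over a median of 417 to 4330 at 29.67 degrees, a 16.9-fold span, with a fitted range of 2.99 ± 0.35 (SE). Only 8 arrays lay above the midpoint of its log2 values. Within batches 1 and 2, ranges were 2.37 and 3.76 for IMD4, 1.99 and 2.43 for GUA1, 1.85 and 2.03 for IMD3, 1.59 and 2.35 for FCY2, 1.30 and 1.76 for APT1 and 1.02 and 1.50 for HPT1. For ADO1 they were 0.54 and 0.74, and for AMD1 0.31 and 0.50.

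**Figure D3:**
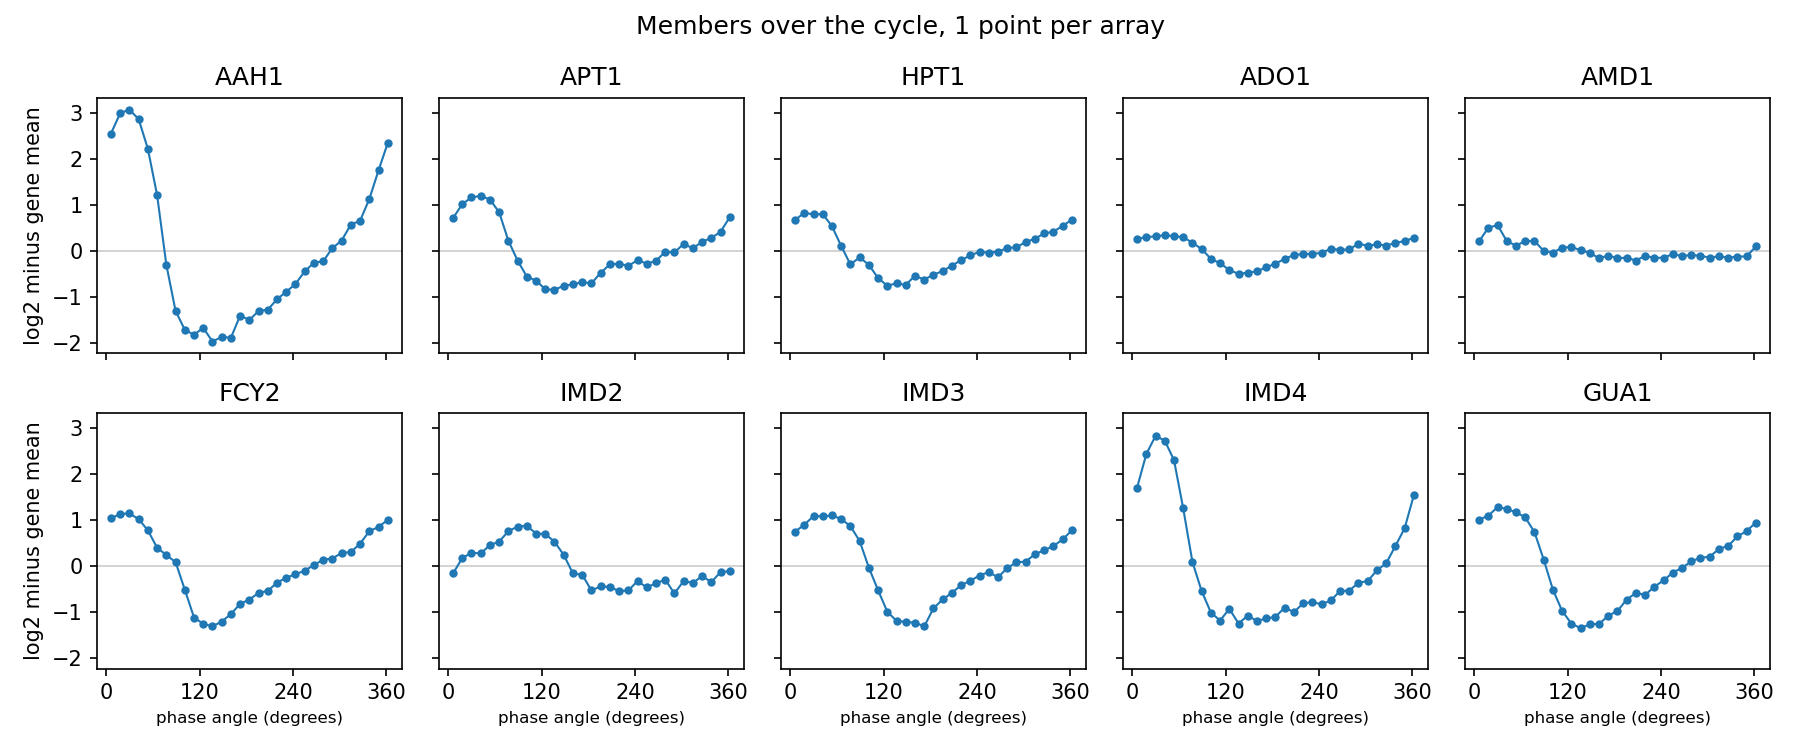
Log2 normalized intensity minus the mean of each gene against the phase angle in degrees, 1 panel per gene and 1 point per array, on a shared scale. All genes except IMD2 are highest between 17.8 and 53.41 degrees, AAH1 and IMD4 swing most, and IMD2 is highest at 100.88 degrees.

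IMD2 followed another course. Its level went up where those of the other genes went down, by little in AMD1 and ADO1: between 53.41 and 89.01 degrees it went from 664 to 878, while AAH1 kept 8.70% of its level, IMD4 13.9%, APT1 39.8%, GUA1 49.1%, FCY2 62.0%, HPT1 62.5%, IMD3 68.1%, ADO1 82.3% and AMD1 92.4%. IMD2 was highest at 889 (100.88 degrees), had a median of 433 and was lowest at 321 (290.77 degrees). Its fitted range was 1.22 ± 0.10 (SE), with 1.17 and 1.23 within batches 1 and 2, and its fitted peak was at 84.1 ± 4.7 degrees (SE). That peak varied more between settings than its SE. Within batches 1 and 2 it was at 73.0 and 96.3 degrees. With median centring and on the deposited scale, IMD2 had fitted peaks of 78.7 and 55.4 degrees and ranges of 0.95 and 0.90. Its correlation with AAH1 over the 31 arrays was -0.02, against 0.86 for IMD3 and 0.96 for IMD4. The IMD2 probe set is of a kind (suffix x_at) whose probes may also match other sequences, and its gene has a near-identical copy, IMD1, at a chromosome end in the reference strain, so its values are uncertain. IMD1 was not analysed here.

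The 3 IMD genes encode the same enzyme activity, and the ratio between them within an array does not change when the whole array is scaled by a constant. Quantile normalization is not such a scaling: on the deposited scale the range of IMD2 minus IMD3 was 1.69. The log2 difference IMD2 minus IMD3 was lowest at 5.93 degrees and highest at 136.48 degrees, and varied with phase by 1.98 ± 0.20 (SE, n = 31 arrays). IMD2 minus IMD4 was lowest at 29.67 and highest at 112.75 degrees, with a range of 2.75 ± 0.43 (SE). Both had an adjusted p of 2e-05 over the 4 pairs tested (permutation test), and the unadjusted 1e-05 behind it is the lowest that 100000 permutations allow. Within batches 1 and 2, ranges were 1.46 and 2.47 for IMD2 minus IMD3 and 1.80 and 3.79 for IMD2 minus IMD4. Both differences passed within either batch (adjusted p up to 0.0136, permutation test). IMD3 minus IMD4 had a range of 1.13 ± 0.33 (SE) and an adjusted p = 0.00599 in the permutation test. Within batch 1 this difference did not pass (range 0.55, adjusted p = 0.431, permutation test), although it did within batch 2 (1.84, adjusted p = 0.0166, permutation test). APT1 minus HPT1, the phosphoribosyltransferases for adenine and for hypoxanthine and guanine, varied by 0.46 ± 0.10 (SE, adjusted p = 0.000213, permutation test) with its highest array at 65.28 degrees. Within batch 2 this pair did not pass (range 0.35, adjusted p = 0.0790, permutation test). Permutations take arrays as exchangeable and so make no allowance for the correlation of neighbouring arrays.

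**Figure D4:**
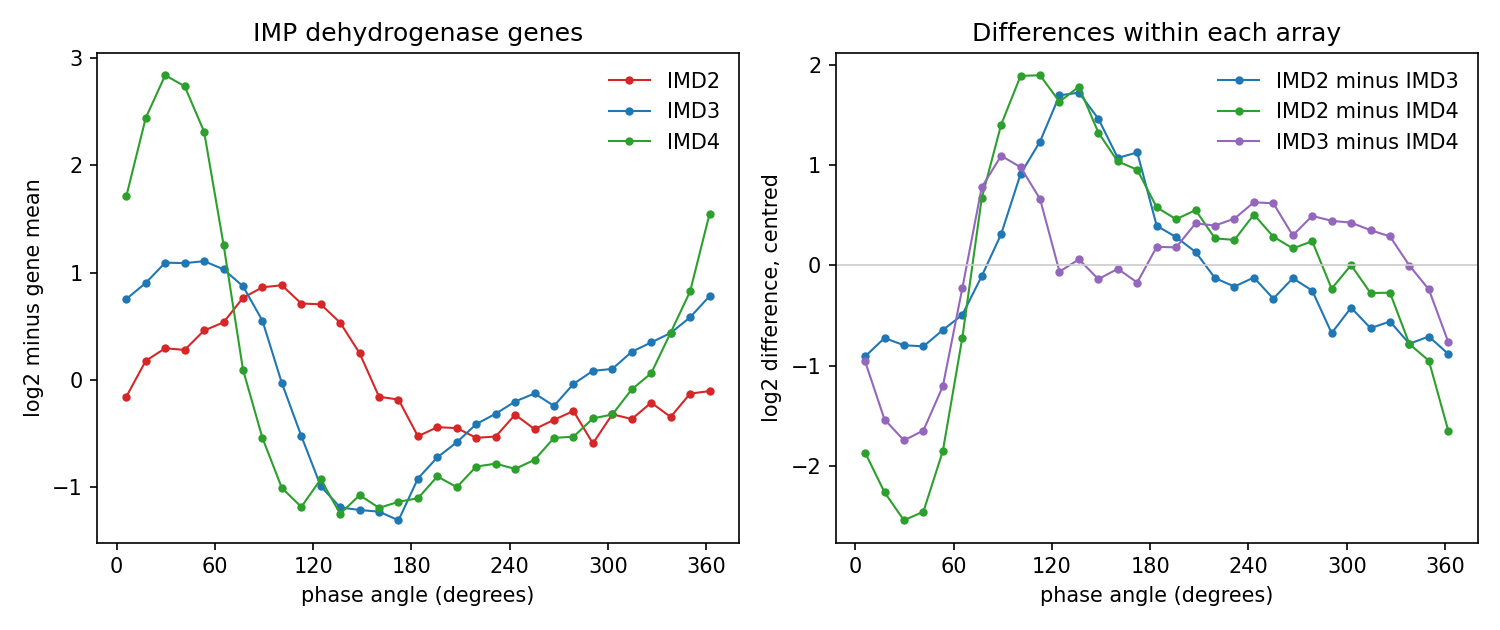
Left, log2 normalized intensity minus the gene mean of IMD2, IMD3 and IMD4 against the phase angle in degrees. Right, the difference of each pair of these curves on each array; IMD2 gains on both other genes from 53.41 to 112.75 degrees and falls back after 136.48 degrees.

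The genes did not fall at the same time. The angle at which each crossed the midpoint between its highest and lowest array on the way down was read by interpolation, with an SE from the spread of neighbouring arrays, and arrays were 11.87 degrees (4 min) apart. HPT1 crossed at 67.4 ± 2.1 degrees, IMD4 at 70.0 ± 1.3, AAH1 at 70.4 ± 1.0 and APT1 at 78.5 ± 1.9 degrees. Of these neighbours in order, HPT1, IMD4 and AAH1 lay within 2 SE of each other. GUA1 followed at 92.2 ± 1.0 degrees, FCY2 at 92.4 ± 1.3, ADO1 at 95.7 ± 1.6 and IMD3 at 102.6 ± 1.6 degrees. GUA1, FCY2 and ADO1 lay within 2 SE of each other, and IMD2 came last at 151 ± 3 degrees. Thus at 77.14 degrees AAH1 stood at 1151 and IMD4 at 648, far below their highest levels, while GUA1 was still at 8269 and IMD3 at 8840. These angles depend on scaling for ADO1 (77.5 degrees with median centring) and IMD2 (124 degrees on the deposited scale), and for APT1 they ran from 74.8 to 88.4 degrees. For HPT1 they ran from 60.9 degrees with median centring, where it was apart from AAH1 (70.1) and IMD4 (69.9), to 72.2 degrees on the deposited scale, where the 3 genes were within 1 degree, so its place in the order is not settled. AMD1 crossed at 46.1 ± 7.2 degrees and is too flat for a firm value.

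On the way up the genes crossed their midpoints over a wider stretch of the cycle. These angles are given for quantile normalization only, so how far they depend on scaling is not shown. FCY2 crossed at 261 ± 6 degrees, GUA1 at 271 ± 5, HPT1 at 279 ± 11, IMD3 at 279 ± 4, AAH1 at 318 ± 5, APT1 at 328 ± 6 and IMD4 at 353 ± 4 degrees. ADO1 crossed at 217 ± 20, AMD1 at 4.8 ± 2.2 and IMD2 at 16.6 ± 3.6 degrees. As a result GUA1, FCY2 and IMD3 spent 61.0, 64.6 and 61.8 min above their midpoints, AAH1 38.0 min and IMD4 25.9 min. Profiles were therefore not plain cosines: all 9 genes other than AAH1 passed limma's test for terms at 2 and 3 times the angle (adjusted p from 1.58e-16 for IMD3 to 0.000667 for AMD1), as did 86.1% of all probe sets tested. Within either batch 8 of 9 passed, AMD1 being the exception in both (adjusted p = 0.0789 and 0.0857, limma). The share of all probe sets passing this test within a batch is not given, so these counts cannot be set against it.

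The genes whose log2 profile was most like that of AAH1 were taken by Pearson's r over the 31 arrays, which are neighbours in time and so not independent. They were NOC4 (r = 0.996), which acts in assembly of the small ribosomal subunit, GCD10 (0.995), for a tRNA methyltransferase subunit, and URK1 (0.994), for the uridine and cytidine kinase of pyrimidine salvage. TMA46, RLP7, TOD6, RRP1, RIX1, EMW1 and MAK5 followed with r from 0.993 to 0.991. Of these, TOD6 encodes a repressor of ribosome biogenesis genes, and RLP7, RRP1, RIX1 and MAK5 act in assembly of the large subunit. Fitted ranges of the 10 ran from 1.99 for TMA46 to 3.48 for RIX1. The most opposite profiles were those of AIM18 (r = -0.990), RAS2 (-0.988), for a GTPase of nutrient signalling, and PNS1 (-0.986). FMP30, CSM3 and APC5 were most like IMD2, with r of 0.931, 0.925 and 0.925.

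Most other genes of purine salvage and interconversion also peaked in the part of the cycle where AAH1 was high. Of 15 listed, 14 had a probe set and all 14 varied with phase (limma), against 89.1% of all probe sets tested. In 5 of 14 the range reached 2-fold (23.1% of all), the median range was 0.87 (log2 scale), and 10 of 14 passed with serially correlated arrays (60.3% of all). The first and the last count are near the shares over all probe sets. In 11 of 14 the fitted peak lay from 300 to 60 degrees (35.5% of all). MEU1, for the methylthioadenosine phosphorylase that releases adenine, had the largest range, 1.54 ± 0.17 (SE), and went from 1652 to 7141. The permease relatives FCY22 and FCY21 varied by 1.50 ± 0.22 and 1.42 ± 0.22 (SE) at low intensities, from 26.7 to 169 and from 98.4 to 604. ADE12 and ADE13, whose enzymes carry IMP to AMP, varied by 0.72 ± 0.05 and 0.83 ± 0.08 (SE).

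The 3 exceptions were PNP1, ISN1 and GUD1, named after their values were seen. ISN1, for the nucleotidase that removes phosphate from IMP, was lowest at 562 (41.54 degrees), had a median of 1506 and was highest at 1871 (124.62 degrees). Its fitted range was 0.93 ± 0.15 (SE, adjusted p = 8.74e-06, limma). GUD1, for guanine deaminase, was lowest at 237 (17.8 degrees), had a median of 483 and was highest at 758 (112.75 degrees). Its range was 1.00 ± 0.15 (SE, adjusted p = 1.84e-06, limma). Both genes were thus low where GUA1 and AAH1 were high, and their r with AAH1 was -0.936 and -0.962. PNP1, for purine nucleoside phosphorylase, varied by 0.33 ± 0.06 (SE, adjusted p = 3.37e-05, limma) and did not pass with serially correlated arrays (adjusted p = 0.0598, limma).

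De novo synthesis genes had many of their highest arrays slightly after those of the salvage genes, a difference that was not tested. Of 15 listed genes 14 were tested and all 14 varied with phase (limma), where 89.1% of all probe sets did. In 7 of 14 the range reached 2-fold (23.1% of all), the median range was 1.00 (log2 scale), and 13 of 14 passed with serially correlated arrays (60.3% of all). Their highest arrays lay at 41.54 degrees for 5 genes and at 53.41 degrees for 6. Those at 41.54 degrees were ADE4 and the phosphoribosyl pyrophosphate synthetase genes PRS1, PRS2, PRS3 and PRS5, which feed both routes. Of the 10 salvage and GMP genes, 5 were highest at 29.67 degrees. ADE16, for an enzyme of the last steps to IMP, was the exception, named after its values were seen: it was highest at 148.35 degrees, had a range of 0.34 ± 0.07 (SE) with a fitted peak at 211 degrees, and its r with AAH1 was -0.78. PRS3, for a phosphoribosyl pyrophosphate synthetase, which feeds both routes, went from 1484 over a median of 3039 to 8819 at 41.54 degrees, with a range of 1.97 ± 0.19 (SE). ADE4, for the first enzyme of the de novo route, went from 1197 over 2282 to 7213, also highest at 41.54 degrees, with 1.90 ± 0.17 (SE). MTD1, for a one-carbon folate dehydrogenase, went from 1551 over 2161 to 8699 at 53.41 degrees, with 1.67 ± 0.18 (SE). The array at 41.54 degrees was the dimmest, and the highest array of a gene depends on scaling. On the deposited scale it lay at 29.67 degrees for APT1 and IMD3 and at 65.28 degrees for ADO1. The share of all probe sets highest at these angles is not given here.

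Nucleotide kinases, phosphatases and ribonucleotide reductase genes peaked in several parts of the cycle. Of 13 tested, 12 varied with phase (limma; 89.1% of all probe sets), 3 by 2-fold or more (23.1% of all), and 10 passed with serially correlated arrays (60.3% of all). The first 2 counts are near the shares over all probe sets. The median range was 0.74, against 0.54 over all probe sets tested (log2 scale). URA6, for UMP kinase, had a range of 1.20 ± 0.13 (SE) and peaked at 34.9 degrees on the fitted curve. ADK2, for mitochondrial adenylate kinase, had a range of 1.17 ± 0.16 (SE) and peaked at 157 degrees. PHM8, for a nucleotidase, had a range of 1.04 ± 0.15 (SE) and peaked at 200 degrees. GUK1, for the guanylate kinase that follows Gua1, had a range of 0.46 ± 0.05 (SE) and peaked at 4.66 degrees.

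Among the 5 regulators listed, all varied with phase (limma; 89.1% of all probe sets), and 3 of 5 passed with serially correlated arrays (60.3% of all), both near the shares over all probe sets. SAF1, for the F-box protein that marks Aah1 for degradation when cells enter quiescence, ran opposite to AAH1. It was lowest at 289 (29.67 degrees), on the array where AAH1 was highest, had a median of 1908 and was highest at 2745 (124.62 degrees), a swing opposite in timing (r = -0.955 with AAH1). The fit gave 1.96 ± 0.28 (SE) on the log2 scale, with adjusted p = 1.39e-06 by limma. BAS1, for a transcriptional activator of purine genes, went from 522 at 112.75 degrees over a median of 1443 to 4930 at 29.67 degrees, with a range of 2.07 ± 0.28 (SE). Its partner PHO2 had a range of 0.82 ± 0.10 (SE) and a fitted peak of 173 degrees.

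**Figure D5:**
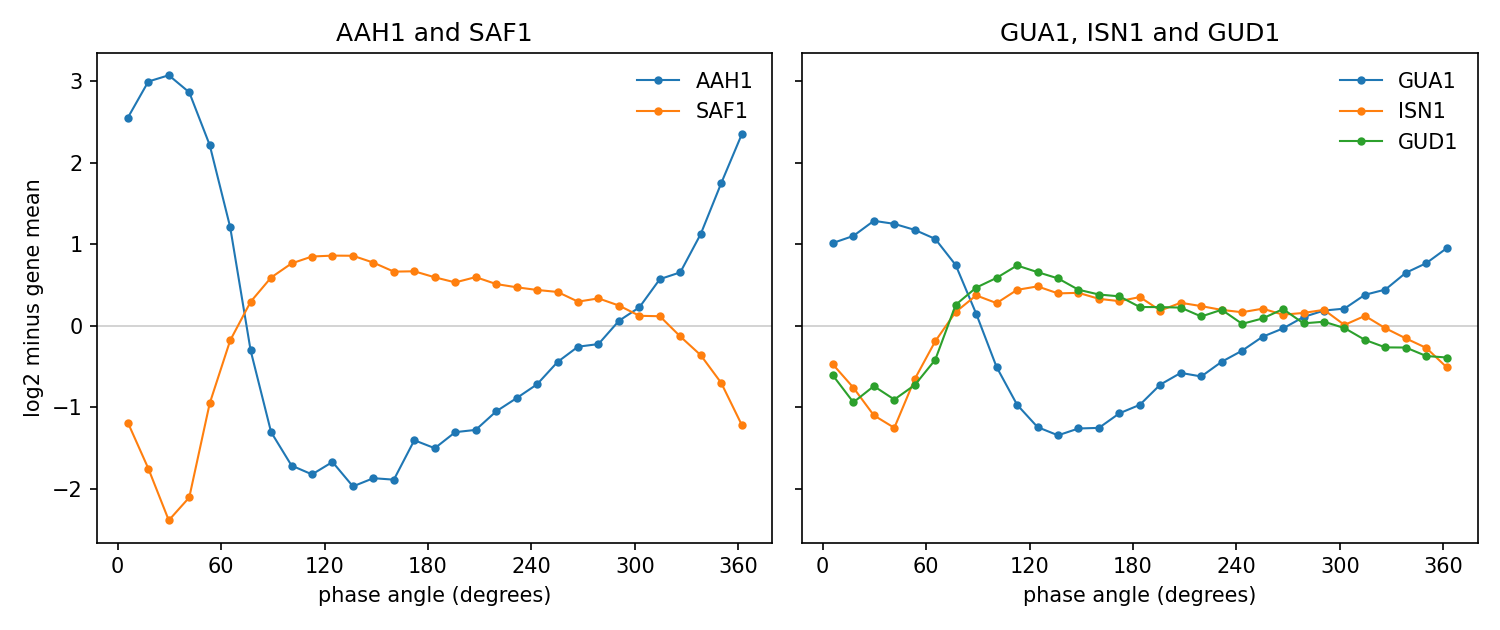
Log2 normalized intensity minus the gene mean against the phase angle in degrees, 1 point per array, for AAH1 and SAF1 (left) and for GUA1, ISN1 and GUD1 (right). SAF1 is lowest at 29.67 degrees, where AAH1 is highest, and ISN1 and GUD1 are lowest at 41.54 and 17.8 degrees.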

How the data were processed

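Total RNA from 31 time points was measured on 1 array each. The authors deposited linear intensities per probe set, and per the submitters' processing notes the tool was GCOS (Affymetrix). The version and the scaling were not given in the sources used here. These intensities spanned 0.1 to 24502. Names came from the array annotation, updated for 12 symbols by a table for assembly R64 of S288C. Where CEN.PK122 differs from S288C in sequence, a probe set may read low. Of 5498 yeast probe sets, 76 were left out because their median did not exceed 17.04, percentile 95 of the probe sets for other species. Log2 intensities were quantile normalized over yeast probe sets. The fit was run on all 5422 with limma 3.58.1 in R 4.3.3, with a cosine and a sine term in phase angle, with Benjamini-Hochberg adjustment and a threshold of 0.05. Terms at 2 and 3 times the angle were tested beside them. The pair differences were tested by permuting arrays. Ranges are peak minus trough on the log2 scale, with delta-method SEs. The fits were tested on simulated data. Figures used matplotlib 3.10.9 in Python 3.11.15.

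The genes and lists were chosen with earlier results of these data known. Named genes are the 10 members, the 10 most like and 3 most opposite AAH1, the 3 most like IMD2 and the 3 largest ranges of each list. Others (ADE12, ADE13, ADE16, PRS1, PRS2, PRS5, GUK1, DBP2, ISN1, GUD1, PNP1, GCN4, SFP1) were added after their values were seen, as were the midpoint crossings. MEP2 and THO2 were named for their position beside AAH1. Alternatives covered scaling, filter, noise model, batch, curve and single arrays. IMD1 and ADE5,7 had no named probe set in the tables used and were not analysed here. Promoter and protein sequences were not used here.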

Additional observations from a re-analysis of the deposited data

How the results depend on the processing

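All 9 genes other than AAH1 passed under each of 12 alternatives (deposited scale, median centring, no filter, a median of at least 100, serially correlated arrays, batch as a term, within either batch, a linear trend in time, first 3 harmonics, last array left out and, added after seeing the data, without the 5 dimmest arrays) and with any single array left out. The number of probe sets passing ran from 3268 to 5188 against 4831, and from 4797 to 4841 with single arrays left out. The AAH1 range ran from 3.20 to 5.20, and from 3.89 to 4.16 with single arrays left out. That of AMD1 ran from 0.28 to 0.59. Leaving out single arrays gave ranges of 1.87 to 2.04 for IMD2 minus IMD3, 2.60 to 2.87 for IMD2 minus IMD4, 0.97 to 1.25 for IMD3 minus IMD4 and 0.39 to 0.51 for APT1 minus HPT1, and no call changed. IMD3 minus IMD4 was lost within batch 1 (0.55) and APT1 minus HPT1 within batch 2 (0.35). Over the 5 alternatives run for pairs, ranges were 1.46 to 2.47 for IMD2 minus IMD3 and 1.80 to 3.79 for IMD2 minus IMD4. Of the regulators, 3 passed with serially correlated arrays against 5, the others being GCN4 and SFP1. The cause was not tested. Batches hold fewer arrays and other angles. Each gene had 1 probe set, so no other could be tried. No paired analysis was possible because there is 1 group. Low intensities limit FCY21 and FCY22.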

Other observations

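Of the genes beside AAH1 on its chromosome, 2 were measured, and both had smaller fitted ranges. MEP2, the ammonium permease gene on one side, had a fitted log2 range of 0.78 ± 0.11 (SE, adjusted p = 8.65e-07 by limma), peaked at 353 degrees and had intensities from 6169 to 13378. Its r with AAH1 over the 31 arrays was 0.64. THO2, a gene of mRNA export on the other side, varied by 0.17 ± 0.03 (SE, adjusted p = 0.000156, limma) with intensities from 2174 to 2702. Its r with AAH1 was 0.53. Both ranges are small beside the 4.04 of AAH1, and the differences were not tested. Both genes were picked for their position. YNL143C and YNL140C, which also lie beside AAH1, were not analysed here.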
